A study of Rattus norvegicus with 8 samples.

Results

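This account concerns 10 genes of fat synthesis and fat-cell identity in the rat Achilles tendon, namely Pparg, Cebpa, Srebf1, Acly, Acaca, Fasn, Elovl6, Me1, Dgat2 and Pck1. They were taken by gene symbol from a table of 15590 genes, in which 9 of the 10 had a row. Elovl6 was not analysed here. RNA was sequenced from the right-leg Achilles tendons of wild-type male SD rats aged 8 to 10 weeks, with 4 libraries of naïve controls (NC) and 4 libraries of rats killed at once after a single 1 h treadmill run (0 h p.r., post-run). The run was at 20 m/min on a 10° incline and was prompted by airflow and mild electric stimuli. The NC rats kept their normal activity in the cage, received no drug or genetic change, and according to the methods were killed together with a group resting for 12 h after its run, whereas the sample labels say that both groups were killed immediately. Running and the time of killing can therefore not be told apart. The labels number the libraries of a group as replicates without saying that each came from a different rat, so the p-values measure the spread between these libraries.

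White fat cells build fatty acids from citrate in the cytosol and store them as triglyceride. ATP citrate lyase (Acly) makes acetyl-CoA, acetyl-CoA carboxylase (Acaca) and fatty acid synthase (Fasn) turn it into palmitate, malic enzyme (Me1) supplies NADPH, and Elovl6 lengthens the chain. Dgat2 adds the last acyl chain of a triglyceride, and Pck1, the cytosolic phosphoenolpyruvate carboxykinase, provides its glycerol backbone by glyceroneogenesis. The nuclear receptor Pparg and the transcription factor Cebpa drive and maintain the fat-cell programme, and Srebf1 encodes SREBP-1, an activator of the lipogenic enzymes. Tendon is chiefly collagen-producing tissue, and dissected tendon can carry fat, muscle and vessels from its surroundings.

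The promoters are given for the regulators and the enzyme on which the values below turn, Pparg, Cebpa and Pck1. RefSeq sequences of the build GRCr8 were found for 6 of the 10 genes, in 8 windows, since Pparg and Srebf1 have 2 starts each. The files themselves use the build Rnor_6.0 and carry no positions. Each line holds the 250 bases before a transcription start, 5′ to 3′ on the plus strand of the genome, with motif matches in capitals. The windows are chr3:182348322-182348571 for Pck1, chr1:96896334-96896583 for Cebpa, and chr4:150096808-150097057 and chr4:150154522-150154771 for Pparg, whose 2 starts lie 57.7 kb apart.
Pck1: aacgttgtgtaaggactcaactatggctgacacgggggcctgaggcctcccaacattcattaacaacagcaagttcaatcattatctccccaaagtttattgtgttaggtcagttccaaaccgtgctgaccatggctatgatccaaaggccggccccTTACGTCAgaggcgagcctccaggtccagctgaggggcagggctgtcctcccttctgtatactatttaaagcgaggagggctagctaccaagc
Cebpa: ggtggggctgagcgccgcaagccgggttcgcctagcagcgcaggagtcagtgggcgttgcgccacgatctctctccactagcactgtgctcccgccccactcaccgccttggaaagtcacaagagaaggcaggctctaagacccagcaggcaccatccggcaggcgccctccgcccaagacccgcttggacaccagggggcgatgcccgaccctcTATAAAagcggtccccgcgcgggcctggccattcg
Pparg, first start: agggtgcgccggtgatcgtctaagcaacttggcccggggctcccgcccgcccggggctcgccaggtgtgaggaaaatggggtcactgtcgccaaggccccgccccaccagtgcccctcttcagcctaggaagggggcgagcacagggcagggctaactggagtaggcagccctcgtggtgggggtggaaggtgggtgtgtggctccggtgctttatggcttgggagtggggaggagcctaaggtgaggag
Pparg, second start: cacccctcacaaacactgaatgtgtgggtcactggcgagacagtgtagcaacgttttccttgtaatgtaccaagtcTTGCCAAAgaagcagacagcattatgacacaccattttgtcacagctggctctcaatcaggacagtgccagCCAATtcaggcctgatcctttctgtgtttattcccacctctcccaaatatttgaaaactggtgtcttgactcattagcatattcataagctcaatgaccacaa
The motifs searched on both strands were the TATA box TATAAA, the CCAAT box CCAAT, the cAMP response element TNACGTCA, a C/EBP site TTGCNNAA, the sterol response element TCACNCCAC and the PPAR response element AGGTCANAGGTCA. The Pck1 window held TTACGTCA at -93 to -86 from the start, a match shared with 2.88% of the 33469 rat windows of this length. The Cebpa window held TATAAA at -35 to -30, as did 12.9% of all windows. The second Pparg window held TTGCCAAA at -174 to -167 and CCAAT at -103 to -99, letters found in 9.22% and 34.0% of all windows, and the first held none of the 6 motifs. The sterol and PPAR response elements were in none of the 8 windows and in 0.974% and 0.0508% of all windows. A match is a description of letters and not a binding site.

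The libraries held 11353941 to 17903265 reads in the listed genes, which were recovered from the steps of the FPKM values (fragments per kilobase of gene, scaled to library size). The 9 genes had between 264 reads (Pck1 in 0 h p.r. replicate 1) and 14971 reads (Fasn in NC replicate 1) in a library, so each level was well above a floor of 3 reads. NC replicate 2 stood apart in its mitochondrial share of FPKM, 31.1% beside 16.3% to 21.9% elsewhere. Tenocyte markers summed to 3777 to 7451 FPKM in NC and 4154 to 7450 FPKM in 0 h p.r. libraries, and none of the 8 was called by limma or by voom. The largest differences among them were those of Comp (0.67, limma adjusted p = 0.167), Scx (0.48) and Tnmd (-0.28). Comp was the 1 with an unadjusted limma p under 0.05, and 1575 of all 13863 tested genes were higher at this p. Markers of macrophages (100 to 199 FPKM), endothelium (247 to 325 FPKM) and brown adipocytes overlapped between the groups in their sums, although Cidea, which white fat also expresses, was lower (-0.94, limma adjusted p = 0.0477, under the fold of 2) and the macrophage gene Cd163 had a log2 fold change of -1.09 (adjusted p = 0.0982). Summed hepatocyte markers overlapped too, at 5.08 to 28 FPKM in NC and 21 to 160 FPKM in 0 h p.r., mostly from Serpina1 (2.44, limma adjusted p = 0.0670). Adipocyte markers were present as well. Summed, they reached 6185, 5451, 3184 and 3097 FPKM in NC and 1085, 1504, 1877 and 2256 FPKM in 0 h p.r. libraries, without overlap. Skeletal muscle markers summed to 4279 to 7066 FPKM in NC and spread from 1024 FPKM (replicate 4) to 33699 FPKM (replicate 1) in 0 h p.r. libraries. Of the 8 tested, 6 were higher on average (most of all Actn3, 1.76, limma adjusted p = 0.450), and none was called. The slow-fibre markers Tnnt1 (-3.54, limma adjusted p = 0.133, no overlap) and Myh7 (-3.42, adjusted p = 0.169) were lower on average. The part of these other cell types in the results below was not tested. In whole tissue, fewer cells of a type and less RNA per cell cannot be told apart.

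The levels of 8 of the 9 genes were lower on average after running than in NC, and that of Me1 was higher, while 50.1% of all tested genes were lower. None of the 9 had both an adjusted p under 0.05 and a fold of at least 2, thresholds taken from the study. The test here was limma on log2(FPKM + 0.5), with Benjamini-Hochberg adjustment over all 13863 tested genes. The study applied these thresholds to a different test, DESeq2, whose results are not reported here. Of all tested genes, 2.70% passed both thresholds in limma, 0.894% in the lower direction. At any fold, 0 of the 9 had an adjusted p under 0.05, beside 5.72% of all genes. Without adjustment, 4 of the 9 had a p under 0.05 (Cebpa, Pparg, Pck1 and Dgat2), all lower, against 11.2% of all tested genes that were lower at this p. Limma's voom, a weighted linear model on the log of the recovered reads, also called 0 of the 9. The median log2 fold change of the 9 was -0.74, beside -0.0014 over all tested genes. In 2 of the 9, Pparg and Cebpa, the groups were separate, both lower in the running group, and 7.47% of all tested genes were lower without overlap.

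**Figure D1:**
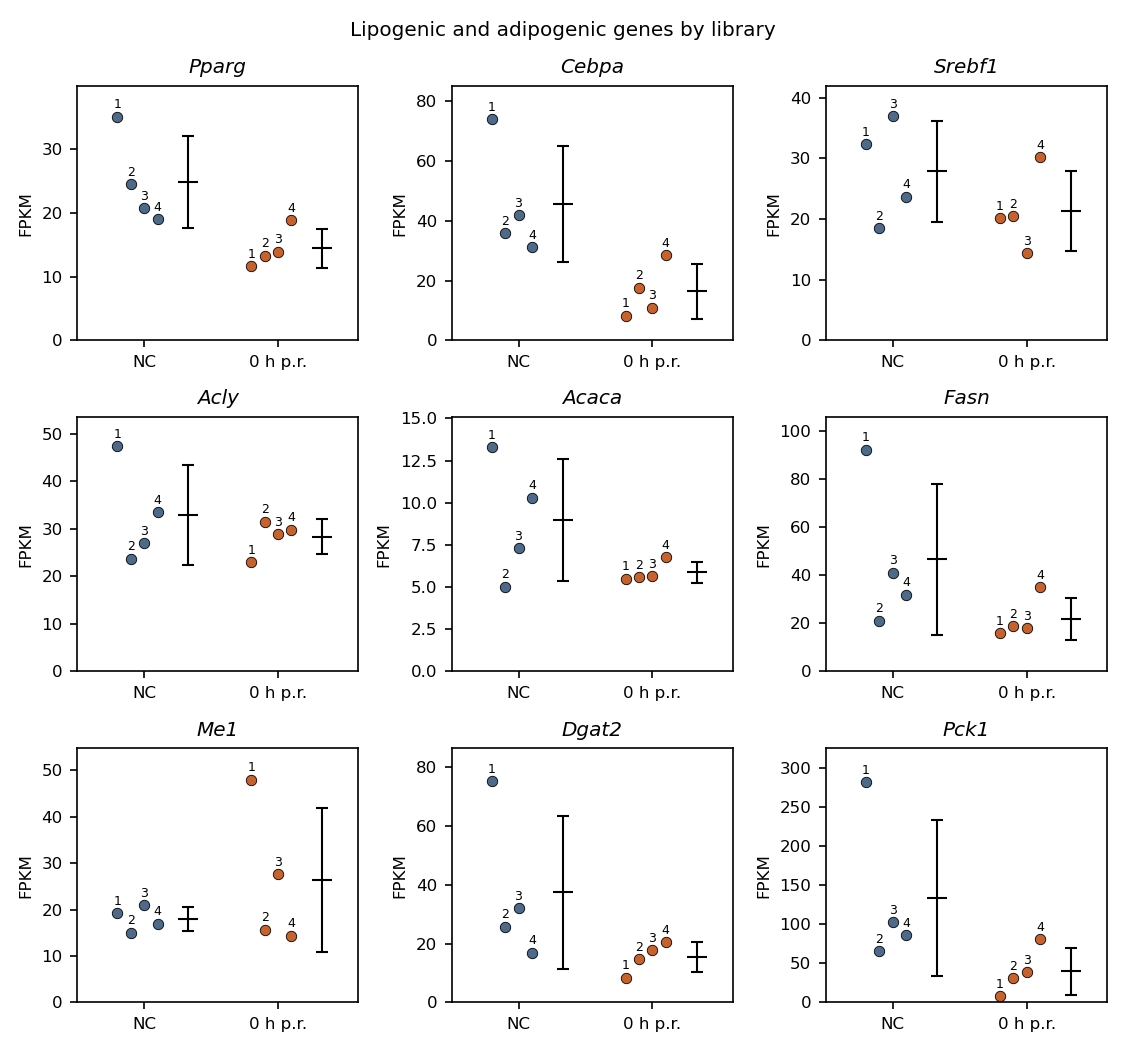
FPKM of the 9 measured genes in each library (points, numbered by replicate) of the NC and 0 h p.r. groups, with the group mean and SD at the right of each group and every axis starting at 0. NC replicate 1 is the highest control for 7 of the 9 genes, and 0 h p.r. replicate 4 the highest running library for 7 of the 9.

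Among the regulators, Cebpa, the CCAAT/enhancer-binding protein that keeps fat cells differentiated, had the largest difference. It had 74.0, 35.8, 41.9 and 31.2 FPKM in NC and 8.24, 17.6, 11.0 and 28.6 FPKM in 0 h p.r. libraries. Every control lay above every running library, with NC replicate 4 and 0 h p.r. replicate 4 next to each other. NC averaged 45.7 ± 19.3 FPKM and the running group 16.4 ± 9.03 FPKM (SD, n = 4 each), a log2 fold change of -1.53 (SE 0.39, 95% interval -2.40 to -0.65, limma adjusted p = 0.0538). Cebpa lay just outside the adjusted p of 0.05 and was called or not called according to the libraries used and their weights. Without 0 h p.r. replicate 4 it passed both thresholds, with a log2 fold change of -1.84 and a limma adjusted p of 0.0161, and 1.50% of all genes tested in that fit were called lower. With limma's array weights the change was -1.64 and the adjusted p 0.0184, where 1.57% of genes were called lower. Without 0 h p.r. replicate 3 the limma adjusted p was 0.142.

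Pparg, the receptor that directs fat-cell differentiation, was read at 35.1, 24.5, 20.8 and 19.0 FPKM in NC. In 0 h p.r. libraries it was read at 11.7, 13.3, 13.9 and 18.9 FPKM. The groups did not overlap, but the lowest control and the highest running library, with 648 and 783 reads, differed by less than their counting error (95% exact Poisson intervals 17.5 to 20.5 and 17.6 to 20.3 FPKM, which cover counting error only). The means were 24.8 ± 7.22 and 14.5 ± 3.10 FPKM (SD, n = 4 each), a log2 fold change of -0.74 (SE 0.21, 95% interval -1.22 to -0.26, limma adjusted p = 0.0758). The fold of 1.67 was under the study's limit of 2. When a library was left out, the limma adjusted p ran from 0.0404 (without 0 h p.r. replicate 4) to 0.186 (without 0 h p.r. replicate 2).

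Srebf1 was measured at 32.3, 18.5, 37.0 and 23.7 FPKM in NC and 20.1, 20.5, 14.4 and 30.2 FPKM in 0 h p.r. libraries. The groups overlapped widely, with the lowest control under 3 of the running libraries. The log2 fold change was -0.38 (SE 0.26, 95% interval -0.97 to 0.22, limma adjusted p = 0.450), and it was -0.21 without 0 h p.r. replicate 3 and -0.23 without NC replicate 3. The row sums the transcripts of the gene, so SREBP-1a and SREBP-1c, which start from different promoters, were not separated.

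The enzymes from citrate to palmitate differed in how far apart the groups lay. Acly had 47.4, 23.7, 27.0 and 33.5 FPKM in NC and 23.0, 31.5, 28.9 and 29.8 FPKM in 0 h p.r. libraries. Apart from NC replicate 1, its levels in both groups lay in the same range. The log2 fold change was -0.17 (SE 0.21, 95% interval -0.65 to 0.30, limma adjusted p = 0.692), an interval that leaves out a fold of 2 in either direction. Without NC replicate 1 the sign turned, at 0.02 on the log2 scale.

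Acaca, the rate-limiting carboxylase, was the lowest of the 9 genes in both groups. It had 13.3, 5.02, 7.31 and 10.3 FPKM in NC and 5.49, 5.60, 5.63 and 6.78 FPKM in 0 h p.r. libraries. The running libraries were close to each other, at 5.87 ± 0.606 FPKM (SD, n = 4), while the controls spread around 8.97 ± 3.59 FPKM (SD, n = 4) and 1 of them lay below all running libraries. The log2 fold change was -0.49 (SE 0.26, 95% interval -1.08 to 0.09, limma adjusted p = 0.299), and it was -0.29 without NC replicate 1.

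Fasn, the multifunctional synthase that makes palmitate, had 92.2, 21.1, 41.0 and 31.9 FPKM in NC and 15.8, 18.8, 17.9 and 35.0 FPKM in 0 h p.r. libraries. Replicates 1, 2 and 3 of the running group lay below every control, and replicate 4 lay above 2 of the controls. The means were 46.5 ± 31.5 and 21.9 ± 8.85 FPKM (SD, n = 4 each). The log2 fold change of -0.93 (SE 0.42, 95% interval -1.88 to 0.03) did not pass, with a limma adjusted p of 0.235. It was -0.53 without NC replicate 1 and -1.23 without NC replicate 2.

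Me1, which yields NADPH for fatty acid synthesis, was the gene with a higher mean after running. Its levels were 19.3, 15.0, 20.9 and 17.0 FPKM in NC and 48.0, 15.7, 27.7 and 14.4 FPKM in 0 h p.r. libraries. Replicates 1 and 3 of the running group lay above every control and replicates 2 and 4 among or below them. The log2 fold change was 0.38 (SE 0.34, 95% interval -0.39 to 1.16, limma adjusted p = 0.572), and it was 0.04 without 0 h p.r. replicate 1. The running libraries had the same order in the summed skeletal muscle markers, which were 33699 FPKM in replicate 1, 15067 FPKM in replicate 3, 5759 FPKM in replicate 2 and 1024 FPKM in replicate 4. In NC the orders differed, since replicate 2 had the lowest Me1 and the second-highest muscle sum (6965 FPKM). The slow-fibre markers Myh7 and Tnnt1 did not follow the sum, with 0.514 and 1.52 FPKM in 0 h p.r. replicate 3. Whether muscle in the dissected tissue had a part in the Me1 level was not tested.

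At the end of the pathway, Dgat2 had 75.4, 25.8, 32.0 and 16.9 FPKM in NC and 8.47, 14.7, 17.8 and 20.5 FPKM in 0 h p.r. libraries. The groups overlapped through NC replicate 4, which lay below 2 of the running libraries. The means were 37.6 ± 26.0 and 15.4 ± 5.19 FPKM (SD, n = 4 each), a log2 fold change of -1.11 (SE 0.43, 95% interval -2.08 to -0.13, limma adjusted p = 0.168). Without NC replicate 1 it was -0.70.

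Pck1, whose promoter with the cAMP response element letters is given above, had the largest difference of the 9 and the widest spread within the running group. Its readings were 282, 65.9, 103 and 85.6 FPKM in NC and 7.58, 30.8, 38.9 and 81.0 FPKM in 0 h p.r. libraries. The running libraries differed 10.7-fold among themselves, and replicate 4 lay among the controls while the other 3 lay below all of them. The means were 134 ± 99.8 and 39.6 ± 30.6 FPKM (SD, n = 4 each), with a log2 fold change of -1.92 (SE 0.68, 95% interval -3.46 to -0.38, limma adjusted p = 0.134). Leaving out a library moved this change between -2.40 (without 0 h p.r. replicate 4) and -1.29 (without 0 h p.r. replicate 1). With limma's array weights, Pck1 passed both thresholds at -2.16 and an adjusted p of 0.0393.

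**Figure D2:**
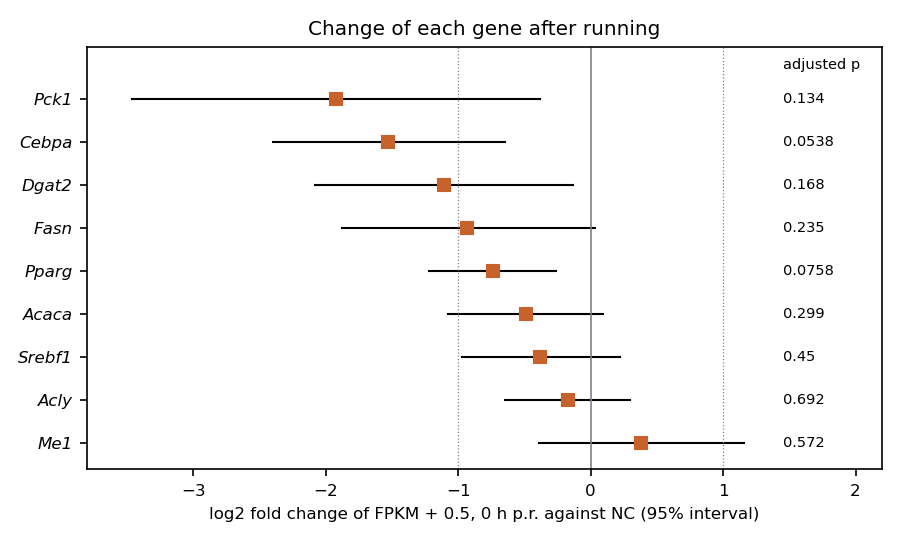
Log2 fold change of FPKM + 0.5 between 0 h p.r. and NC for each gene (squares) with the 95% interval of limma (lines) and the adjusted p at the right; dotted lines mark a fold of 2. The intervals of Pck1, Cebpa, Dgat2 and Pparg lie below 0, and none of the adjusted p-values is under 0.05.

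The order of the 9 levels was also compared, since FPKM are scaled to gene length. In NC the mean ranged from Pck1 (134 FPKM) through Fasn (46.5), Cebpa (45.7), Dgat2 (37.6), Acly (32.9), Srebf1 (27.9), Pparg (24.8) and Me1 (18.0) to Acaca (8.97 FPKM). Neighbours in this order overlapped between libraries, except that all Acaca levels lay below all Me1 levels. In 0 h p.r. libraries the order of the means was Pck1 (39.6 FPKM), Acly (28.3), Me1 (26.4), Fasn (21.9), Srebf1 (21.3), Cebpa (16.4), Dgat2 (15.4), Pparg (14.5) and Acaca (5.87 FPKM). There too only Acaca stood apart from its neighbour.

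The same libraries were extreme for most of the genes. NC replicate 1 was the highest control for 7 of the 9, all but Srebf1 and Me1. In the running group replicate 4 was the highest for 7 of the 9, all but Acly and Me1, and replicate 1 the lowest for 7 of the 9, all but Srebf1 and Me1. NC replicate 1 and 0 h p.r. replicate 4 had the highest summed adipocyte markers of their groups, at 6185 and 2256 FPKM, and 0 h p.r. replicate 1 had the lowest of all libraries, at 1085 FPKM. NC replicate 2 went the other way, as the lowest control for 6 of the 9 genes and the second-highest library in the marker sum, at 5451 FPKM.

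The adipocyte markers were set beside the genes. All 10 markers were lower after running, 9 of them without overlap (beside 7.47% of all tested genes), and 6 of the 10 were called lower (beside 0.894%), with a median log2 fold change of -1.69. Cidec, a lipid droplet protein, fell by 2.41 on the log2 scale (limma adjusted p = 0.0270), the hormone gene Lep fell by 2.37 (adjusted p = 0.0286) and Retn, encoding resistin, fell by 2.14 (adjusted p = 0.0117). Of these 3, Retn remained under an adjusted p of 0.05 whichever library was left out, whereas Lep reached 0.0868 without NC replicate 1 and Cidec 0.0796 without 0 h p.r. replicate 2. The other called markers lost the call without that library too, at limma adjusted p-values of 0.105 for Adipoq, 0.0997 for Cfd and 0.109 for Plin4. Over the 8 leave-one-out fits, the adjusted p exceeded 0.05 in 6 for Adipoq, Lep and Cfd, 5 for Plin4 and 4 for Cidec. Slc2a4, the insulin-dependent glucose transporter, which muscle also expresses, had the smallest difference of the 10 (-0.17, limma adjusted p = 0.819).

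Each gene was then expressed in every library as its log2(FPKM + 0.5) minus the mean of the 10 adipocyte markers in that library. The marker mean itself was 7.33 ± 0.50 in the controls and 5.76 ± 0.44 in the running group (SD, n = 4 each), a difference of -1.57. On this relative scale Cebpa was at -1.81, -2.13, -1.68 and -1.90 in NC and -2.14, -1.57, -2.16 and -1.47 in 0 h p.r. libraries, so that the groups overlapped and the means differed by 0.04. Pck1 (-0.35) and Dgat2 (0.46) overlapped as well, and the sign for Pck1 turned without 0 h p.r. replicate 1 (0.12), as that for Cebpa did without some libraries (-0.08 without 0 h p.r. replicate 4). Pparg was at -2.88, -2.67, -2.67 and -2.60 in NC and -1.66, -1.96, -1.84 and -2.06 in 0 h p.r. libraries, higher in every running library, with a difference of 0.83. Higher without overlap were likewise Fasn (0.64), Srebf1 (1.19), Acly (1.39) and Me1 (1.95), which made 5 of the 9, while Acaca (1.07) overlapped. Because the marker mean itself was lower after running, a gene at an equal level comes out higher on this scale. Of all tested genes, 82.7% were higher without overlap relative to the markers, with a median difference of 1.57, so nothing is read from the 5 of 9. These differences are a description with no test, and the relative scale moves with the markers chosen: without Slc2a4 that of Pparg was 0.98.

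**Figure D3:**
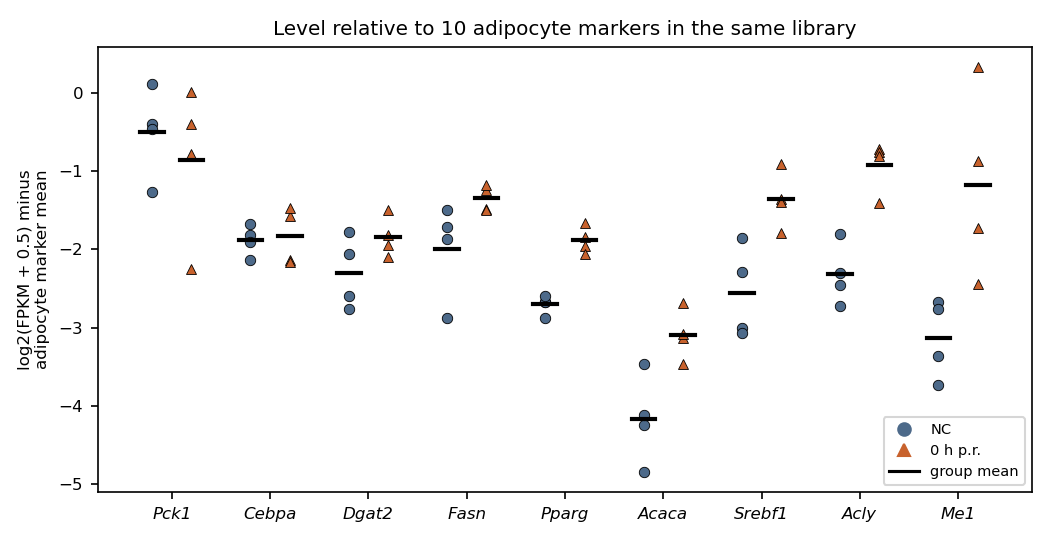
Log2(FPKM + 0.5) of each gene minus the mean log2 level of 10 adipocyte markers in the same library, for NC (circles) and 0 h p.r. (triangles), with group means as bars. Pck1, Cebpa and Dgat2 overlap between groups, and Pparg, Fasn, Srebf1, Acly and Me1 are higher in all running libraries than in the controls, as were 82.7% of all tested genes on this scale.

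The other genes of fatty acid and triglyceride synthesis were mostly lower on average too. Of 16 tested, 15 were lower on average, beside 50.1% of all tested genes. Of the list, 1 was called lower (beside 0.894% of all tested genes) and none higher, with a median log2 fold change of -0.47. The called gene was Thrsp (Spot 14), a lipogenic protein of fat and liver, which had 459, 266, 158 and 169 FPKM in NC and 31.7, 54.1, 58.2 and 115 FPKM in 0 h p.r. libraries. The groups did not overlap, and Thrsp fell by 2.03 on the log2 scale (SE 0.43, limma adjusted p = 0.0324). Its limma adjusted p rose to 0.0994 without 0 h p.r. replicate 2 and exceeded 0.05 in 5 of 8 leave-one-out fits. Agpat2, an acyltransferase of triglyceride synthesis (-1.19, adjusted p = 0.0668), and Acsl1, which activates fatty acids to acyl-CoA (-1.15, adjusted p = 0.0678), did not pass in limma. Of the 16 tested, 5 had no overlap between the groups, Thrsp, Agpat2 and Acsl1 among them. Of all tested genes, 7.47% were lower without overlap.

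In the list of glyceroneogenesis and glycerol handling, 6 further genes were tested (median log2 fold change -0.53). Of these, 1 was called lower, beside 0.894% of all tested genes, and none higher. Aqp7, the glycerol channel of fat cells, had 68.3, 55.9, 40.4 and 34.8 FPKM in NC and 7.42, 14.8, 10.5 and 28.3 FPKM in 0 h p.r. libraries. Every control lay above every running library, and Aqp7 fell by 1.80 on the log2 scale (SE 0.38, limma adjusted p = 0.0309). That adjusted p reached 0.0939 without NC replicate 1 and exceeded 0.05 in 6 of 8 leave-one-out fits. Pc, the pyruvate carboxylase that makes oxaloacetate for Pck1, had a log2 fold change of -1.0 (limma adjusted p = 0.0872), and Pdk4, a kinase that inhibits pyruvate dehydrogenase, -0.73 (adjusted p = 0.121). Neither passed.

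Among 12 further regulators of lipogenesis, 1 was called higher and none lower, beside 1.80% of all tested genes called higher. Irs2, an adaptor of the insulin receptor, rose from 8.76, 5.37, 11.3 and 8.68 FPKM in NC to 22.9, 18.2, 24.5 and 17.9 FPKM in 0 h p.r. libraries. Its log2 fold change was 1.27 (SE 0.21, limma adjusted p = 0.0126), and its adjusted p was at most 0.0463 whichever library was left out. Nr1h3, the oxysterol receptor LXR-alpha that activates Srebf1, had an adjusted p of 0.0374 in limma at a log2 fold change of -0.83, under the fold of 2 (2.23% of all tested genes were lower at this adjusted p and any fold), and an adjusted p of 0.114 without 0 h p.r. replicate 2. Insr, the insulin receptor, did not pass (0.65, limma adjusted p = 0.262). The median of the list was -0.01.

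Among the activators of adipogenesis other than Cebpa and Pparg, 3 of 11 tested were called higher, beside 1.80% of all tested genes. None was called lower, and the median log2 fold change was 0.03. Cebpb, which acts ahead of Cebpa in fat-cell differentiation and also in inflammation, had 61.9, 49.9, 56.9 and 54.3 FPKM in NC and 168, 179, 165 and 153 FPKM in 0 h p.r. libraries. The groups lay far apart and each was narrow, and Cebpb rose by 1.57 on the log2 scale (SE 0.11, limma adjusted p = 0.000299). Its relative Cebpd had 59.1, 85.2, 62.6 and 67.3 FPKM in NC and 204, 289, 289 and 182 FPKM in 0 h p.r. libraries. Cebpd rose by 1.79 (SE 0.19, limma adjusted p = 0.00205), again without overlap. Both stayed under an adjusted p of 0.05 in each of the 8 leave-one-out fits. Klf4, a transcription factor that is also an immediate response gene, rose by 1.38 (limma adjusted p = 0.0368), but its adjusted p was 0.114 without 0 h p.r. replicate 2 and above 0.05 in 5 of the 8.

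Inhibitors of adipogenesis were listed with 8 rows, of which 6 were tested and none was called in limma. At an unadjusted p under 0.05, 1 was higher and 1 lower, beside 1575 higher and 1552 lower of all 13863 tested genes. The largest differences were those of Klf2, a shear-responsive factor (0.71, limma adjusted p = 0.118), Dlk1, the preadipocyte factor (0.61, adjusted p = 0.299), and Nr2f2 (-0.42, adjusted p = 0.112). Limma's voom on the recovered reads called 0 of these 6 as well.

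**Figure D4:**
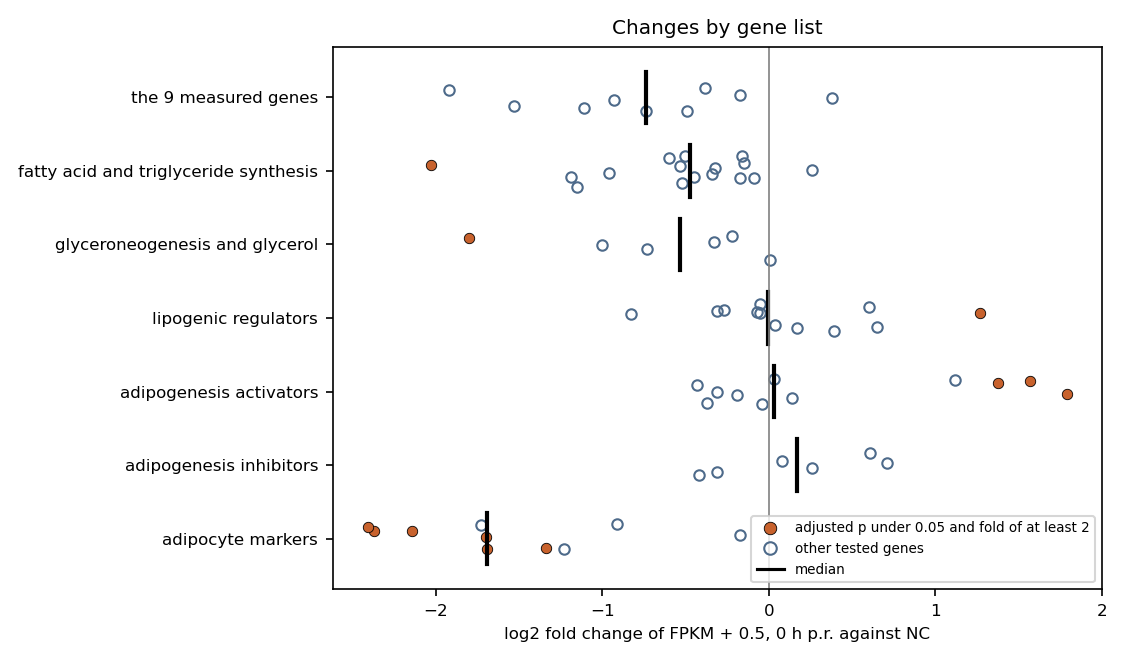
Log2 fold change of FPKM + 0.5 between 0 h p.r. and NC for the tested genes of each list (points), filled where the adjusted p was under 0.05 and the fold at least 2, with the median of the list as a bar; points are spread vertically for legibility. The medians are -0.74 for the 9 measured genes, -0.47 for fatty acid and triglyceride synthesis, 0.03 for activators of adipogenesis and -1.69 for adipocyte markers.

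The tested genes most like Pparg and Pck1 in pattern were looked up by Pearson's r of log2(FPKM + 0.5) over the 8 libraries, which share the 2 groups and the extreme libraries named above. Closest to Pparg were Phgdh (r = 0.986), the first enzyme of serine synthesis, Ptger3 (0.985), a prostaglandin E2 receptor, Lpl (0.985), the lipoprotein lipase, Agpat2 (0.983) and Ctdspl (0.982). Lpl had 436, 231, 224 and 188 FPKM in NC and 92.4, 105, 110 and 148 FPKM in 0 h p.r. libraries. Closest to Pck1 were Card14 (r = 0.992), AABR07028488.1 (0.991), Arpin (0.975), Ednra (0.974), an endothelin receptor, and Otulinl (0.973). These are the highest values among all tested genes over 8 points and are a description with no test.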

How the data were processed

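Libraries were grouped and numbered by the sample titles. According to the methods and the submitters' processing notes, the authors selected polyadenylated RNA, made stranded libraries, aligned reads to Rnor_6.0 with HISAT2 2.1.0, counted them with featureCounts 1.6.3 and normalized with DESeq2 1.30.1. The deposited values were FPKM, 1 column for each of the 8 libraries, scaled between libraries. The log2 fold changes and p-values deposited beside them hold the authors' own comparison and were not used.

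Genes with FPKM of at least 0.5 in at least 4 libraries were tested, 13863 of 15590, on log2(FPKM + 0.5), a scale that understates changes of low genes. The test was limma 3.58.1 (lmFit, eBayes with trend; R 4.3.3), two-sided, without covariate, with Benjamini-Hochberg adjustment over all tested genes, and calls needed an adjusted p below 0.05 together with a fold of at least 2. Whole reads were recovered from the FPKM steps for 100% of genes (tolerance 0.02 reads), and voom on them called 418 genes against 374. On simulated reads with genes changed 4-fold in this comparison, the fit tested 13920 genes and called 97.5% of 197 changed genes, with 9.00% false calls. The simulation gave all genes the same variation beyond counting error. These shares therefore do not carry over to genes that varied more between libraries, such as Pck1.

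The 10 genes, the pathway lists and the marker lists were chosen with earlier results of these data known. Another pathway list is not reported here. Named were the 10 genes, and the 5 most like Pparg and the gene with the largest change. Named too were the 3 tested genes with the largest absolute change in each described pathway list and in the tenocyte and adipocyte markers. Further genes of the marker lists were named as well. Alternatives were other pseudocounts (0.1 and 1), filters and scalings, a replicate block, array weights, voom, the adjusted p alone, and each library left out. Leaving out Slc2a4 from the markers, and 0 h p.r. replicates 1 and 4 together, was chosen after seeing the data. Motifs were searched with Python 3.11.15.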

Additional observations from a re-analysis of the deposited data

Results flagged for a closer look

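Of 32 sets of 4 values examined for a library far from the others (Dixon's test at its 95% critical value, which chance passes in about 1 in 20 sets), 2 were marked. Acaca in 0 h p.r. replicate 4 was 6.78 FPKM, beside 5.49 to 5.63 FPKM in the other 3 running libraries (gap over range 0.894). Fasn in the same library was 35.0 FPKM, beside 15.8 to 18.8 FPKM (gap over range 0.844). That library also had the highest adipocyte marker sum of its group (2256 FPKM) and the lowest skeletal muscle marker sum of all libraries (1024 FPKM). The part of these markers was not tested.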

How the results depend on the processing

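Among the 9 genes, 158 of 162 alternative fits kept the direction and the side of the threshold. Cebpa and Pck1 passed both thresholds under array weights (2 genes called), Cebpa passed without 0 h p.r. replicate 4, and Acly ranged from -0.31 (without NC replicate 2) to 0.02 (without NC replicate 1, limma adjusted p = 0.976). Leaving out 1 library gave 0 to 1 of the 9. The lowest and highest adjusted p over all alternatives were 0.0161 and 0.145 for Cebpa, 0.0404 and 0.186 for Pparg, and 0.0393 and 0.299 for Pck1.

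Over all genes, 374 were called, 793 by the adjusted p alone and 191 (without 0 h p.r. replicate 2) to 504 (without 0 h p.r. replicate 4) when a library was left out. The count was 210 without NC replicate 1, 241 without 0 h p.r. replicate 1 and 195 without 0 h p.r. replicate 3. The 5 pathway lists held 16, 6, 12, 11 and 6 tested genes, of which 6 in all were called, beside 2.70% of all tested genes. Under array weights 11 pathway genes were called, and the count over all genes was 505. The adjusted p alone gave 7 pathway genes, beside 5.72% of all tested genes. Voom called 6 of them and 418 over all genes, and 3 to 9 were called when a library was left out. The causes were not tested. Without 0 h p.r. replicates 1 and 4, 337 genes, 0 of the 9 and 5 pathway genes were called. With the replicate number as a block, 212 genes, 0 of the 9 and 3 pathway genes were called, but the numbers did not pair the libraries (r of same-numbered deviations -0.14 to 0.07, none best with its own number). Each library held at least 264 reads for each of the 9 genes; the nearest NC and running libraries of Pparg differed by less than their counting error.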
